A study of Mus musculus with 6 samples.

Results

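The replication-dependent histone genes supply the histone proteins that package newly copied DNA, and they sit together in clusters. Members were the protein-coding genes of GENCODE M21 whose symbol begins with Hist1h, Hist2h, Hist3h or Hist4h, the cluster names used in that annotation. They numbered 67 of 21951 protein-coding genes, and 56 of the 66679 accessible regions of the series lay within 1 kb of their transcription starts. The rule used names and positions only, and no measured difference between genotypes.

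The regions came from ATAC-seq, which marks open chromatin with a transposase, of primary smooth muscle cells taken from the mouse oviduct at day 2 of pregnancy. The 6 libraries were 3 labelled WT and 3 labelled Pbrm1 cKO, all from females 8 to 12 weeks of age mated with stud males. Pbrm1 encodes a subunit of the PBAF form of the SWI/SNF chromatin remodelling complex. Per the study's methods, the control mice carried the floxed alleles (Pbrm1 fl/fl) without Cre, and the Pbrm1 cKO mice carried the same alleles with a Cre expressed from the progesterone receptor gene, so recombination is limited to cells in which that gene has been active. By the labels' protocol, the oviduct cells were dissociated with enzymes, passed through a filter and plated briefly, and no marker sort is named. The design asks whether loss of Pbrm1 changes accessibility in these cells, and the histone genes are described here for that comparison.

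Histone mRNAs of this group are made mainly in S phase. Most are unspliced, and they end in a conserved stem-loop in place of a poly(A) tail, which the stem-loop binding protein SLBP recognises. Their transcription is coordinated by NPAT at nuclear histone locus bodies. H2A and H2B genes often lie head to head and share the DNA between their starts, while H1 is the linker histone, and H2A, H2B, H3 and H4 form the nucleosome core. The replacement histones, such as H3f3a and H2afz, are transcribed outside S phase as well. Most of those used further on lie elsewhere in the genome, while H2afj lies near Hist4h4 on chromosome 6.

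The Hist1 cluster on chromosome 13 held 54 members, in a block of 23 genes (GRCm38, chr13:21715763-22043676) and a block of 31 genes (chr13:23531050-23934851). The Hist2 cluster on chromosome 3 held 10 members (chr3:96219865-96270132). Hist3h2a and Hist3h2ba lie on chromosome 11, and Hist4h4 lies on chromosome 6. By protein, there were 6 H1, 18 H2A, 18 H2B, 12 H3 and 13 H4 genes. In the annotation 66 of the 67 members had a transcript with 1 exon.

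The stem-loop was looked for by its consensus in the 150 bases after the stop codon, because it marks this class of mRNA independently of the names. It was found in 63 members and in 2 of 21685 other protein-coding genes with an annotated stop codon. The 4 members without a match were Hist1h4a, Hist1h2an, Hist1h3g and Hist2h2be. The match began between 21 and 58 bases after the stop codon (median 30). It took 6 forms, shown here as DNA of the coding strand in GRCm38, all in capitals because the whole element is the motif and each named for 1 gene that carries it.
Hist1h1a form: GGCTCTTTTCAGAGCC
Hist1h1t form: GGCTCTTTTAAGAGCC
Hist1h4c form: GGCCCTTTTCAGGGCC
Hist1h4i form: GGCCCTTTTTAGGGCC
Hist1h4b form: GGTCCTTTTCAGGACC
Hist2h2ac form: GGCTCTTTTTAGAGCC
The form of Hist1h1a was shared by 41 members, that of Hist1h1t by 9 and that of Hist1h4c by 8. The forms of Hist1h4i and Hist1h4b were held by 2 members each, and that of Hist2h2ac by 1.

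The DNA before the starts is shown for some members with the largest differences, none of which was called different between genotypes. It is also shown for Hist1h1e, the best-ranked H1 gene, and for the testis histones, which had no accessible entry. Capitals mark 5 short motifs known from histone promoters, read on either strand: TATAAA (the TATA box), CCAAT, the octamer ATTTGCAT bound by POU2F1, AACACA (the H1 box) and GGTCCG (part of the H4 subtype element bound by HINFP). No motif spelling contains another. The stretch between the Hist1h2bf and Hist1h2ad starts is chr13:23574197-23574380, and the part between the Hist1h2ba and Hist1h2aa starts is chr13:23934157-23934456, both on the plus strand of GRCm38. The others end at the base before the start and are read along the gene: Hist1h4m chr13:21811546-21811745 (plus), Hist4h4 chr6:136804416-136804615 (minus), Hist3h2a chr11:58954513-58954684 (plus), Hist1h1e chr13:23622559-23622758 (minus) and Hist1h1t chr13:23695614-23695813 (plus). No annotated exon overlaps any of them.
Hist1h2bf-Hist1h2ad: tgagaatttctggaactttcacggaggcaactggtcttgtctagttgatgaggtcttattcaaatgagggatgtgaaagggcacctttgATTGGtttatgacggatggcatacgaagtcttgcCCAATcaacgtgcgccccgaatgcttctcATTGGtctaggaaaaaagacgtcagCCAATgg
Hist1h2ba-Hist1h2aa: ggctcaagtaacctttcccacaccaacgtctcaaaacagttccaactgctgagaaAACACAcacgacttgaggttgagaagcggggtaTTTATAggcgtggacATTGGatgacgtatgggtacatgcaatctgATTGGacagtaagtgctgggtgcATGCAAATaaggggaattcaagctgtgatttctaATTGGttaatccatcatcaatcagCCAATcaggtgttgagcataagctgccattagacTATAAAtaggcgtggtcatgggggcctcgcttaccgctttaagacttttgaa
Hist1h4m: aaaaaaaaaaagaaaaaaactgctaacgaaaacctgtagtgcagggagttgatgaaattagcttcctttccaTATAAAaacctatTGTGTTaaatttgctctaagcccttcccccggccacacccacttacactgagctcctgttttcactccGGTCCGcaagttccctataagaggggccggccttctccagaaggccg
Hist4h4: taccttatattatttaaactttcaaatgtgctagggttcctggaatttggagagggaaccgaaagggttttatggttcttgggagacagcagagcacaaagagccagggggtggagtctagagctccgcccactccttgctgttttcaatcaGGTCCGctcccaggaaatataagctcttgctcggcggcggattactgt
Hist3h2a: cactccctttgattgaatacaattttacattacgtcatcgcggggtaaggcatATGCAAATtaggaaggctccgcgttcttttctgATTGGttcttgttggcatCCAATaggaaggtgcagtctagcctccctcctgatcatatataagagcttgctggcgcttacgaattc
Hist1h1e: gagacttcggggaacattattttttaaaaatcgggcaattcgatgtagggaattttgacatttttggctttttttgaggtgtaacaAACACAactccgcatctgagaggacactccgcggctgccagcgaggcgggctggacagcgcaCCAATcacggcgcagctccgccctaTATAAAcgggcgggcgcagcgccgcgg
Hist1h1t: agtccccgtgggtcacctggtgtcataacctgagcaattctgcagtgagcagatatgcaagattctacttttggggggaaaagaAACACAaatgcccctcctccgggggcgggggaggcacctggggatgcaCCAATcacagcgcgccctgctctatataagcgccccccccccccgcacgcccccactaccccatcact

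In RefSeq's promoter windows (GRCm38.p6, 250 bases before to 50 after each start), 62 of the 67 members had an entry. The octamer occurred in 7 of 18 H2A and 6 of 16 H2B windows, and in none of the 6 H1, 10 H3 or 12 H4 windows, against 1.74% of 32851 windows of all genes. CCAAT occurred in all 18 H2A, all 16 H2B, all 10 H3 and all 6 H1 windows and in 3 of 12 H4 windows, against 37.4% of all windows. GGTCCG occurred in 11 of 12 H4 windows and in 1 H2B and 1 H3 window, against 8.25%. AACACA occurred in 5 of 6 H1 windows and in 4 of 12 H4 windows, against 17.4%. TATAAA occurred in 35 of 62 member windows, against 13.6%. These are matches of letters in a fixed window, and the window of H2A and H2B genes can hold the promoter of both. Among H2A and H2B members with a window and a region, the 11 with the octamer had a median rank percentile (the share of all regions that ranked below) of 88.4% and the 21 without it one of 91.0%.

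Of the 67 members, 62 (92.5%) had a region within 1 kb of a start, where 62.7% of all protein-coding genes did. For 61 of them the start itself lay inside a region, and for Hist1h3f the nearest region began 178 bases away. Of the 56 regions, 47 held at least 1 member start, and 23 lay within 1 kb of more than 1 member. Regions are the union of the conservative peaks of both genotypes, and 50 of the 56 were in both lists, 4 in the WT list alone and 2 in the Pbrm1 cKO list alone. In both lists were thus 89.3% of the member regions, 82.9% of promoter regions and 69.2% of all regions. In the separate libraries, 55 of the 56 regions (98.2%) had an entry in all 6, as did 97.0% of promoter regions and 93.5% of all regions.

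Hist1h1d, Hist1h1t, Hist1h2aa, Hist1h2ba and Hist1h3d had no region. Hist1h1t, the testis linker histone, and Hist1h2aa and Hist1h2ba, the testis H2A and H2B that share a promoter, had no entry within 1 kb in any of the 6 libraries. All of them carry the stem-loop, and the sequences above hold CCAAT and AACACA before Hist1h1t and these together with TATAAA and the octamer between Hist1h2ba and Hist1h2aa. Hist1h3d, an H3 gene, had an entry within 1 kb in all 6 libraries, with a fold enrichment over local background of 3.73, 4.53 and 4.54 in WT and 4.83, 3.46 and 4.41 in Pbrm1 cKO, but no conservative peak. Hist1h1d had no entry within 1 kb of the start in GENCODE M21, which lies 1770 bases from the RefSeq start. The RefSeq start lies inside a region (chr13:23554910-23556357) that ranked 13869, 19943.5 and 6316 in WT and 21389, 19766 and 14540 in Pbrm1 cKO. The other 61 members matched to RefSeq had starts within 100 bases of each other in both annotations.

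Levels were compared by rank, since the peak lists hold no read counts. In each library all 66679 regions were ranked by the best −log10 p of an entry over them, with 1 for the strongest, tied entries sharing a mean rank and regions without an entry placed last. The rank percentile of a region is the share of all regions that ranked below it. It shows where a region stands within its library, and a change common to all regions cannot be seen. ATAC-seq of a cell population also cannot tell fewer cells with an open site from less opening in each cell.

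Member regions ranked high in every library. Their median percentile was 81.4%, 80.9% and 81.1% in the WT libraries and 76.5%, 81.3% and 82.9% in the Pbrm1 cKO libraries, so that the genotype means were 81.2% ± 0.236 and 80.2% ± 3.29 (SD, n = 3 each). The Pbrm1 cKO libraries lay on both sides of the WT values. The median of the mean over 6 libraries was 80.2% for the 56 member regions, 75.2% for the 18860 promoter regions of protein-coding genes and 46.7% for all regions. Ranked by fold enrichment in place of −log10 p, the member median was 58.6%. The promoter median on that measure is not given here, so the standing of members among promoters by fold is not shown. Counted once per gene, by the region nearest to a start, the median was 87.3% for 62 members and 86.2% for 13706 other protein-coding genes, so the members stood close to genes in general on this count. Member regions were 728.5 bases wide at the median, against 695 bases for promoter regions. Peaks over them covered between 9 and 164 tags at the summit (median 61), with fold enrichments of 2.74 to 21.7 (median 9.30).

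The level differed between histone types. By the region nearest to each start, the median percentile was 91.5% for 17 H2A genes, 90.2% for 17 H2B genes, 77.5% for 11 H3 genes, 69.7% for 13 H4 genes and 63.4% for 4 H1 genes. The per-library medians of H2A ran from 89.99% to 94.0% and those of H4 from 66.3% to 78.0%, so the H2A median was above that of H4 in all 6 libraries. The H3 medians ran from 73.4% to 83.5% and overlapped those of H4. H1 rested on 4 genes, with medians from 54.4% to 74.3%. Above the promoter median, which is taken per region, were 14 of 17 H2A, 15 of 17 H2B, 6 of 11 H3, 6 of 13 H4 and 2 of 4 H1 genes. In all, 43 of 62 members were above it, as were 9073 of 13706 other protein-coding genes. The best-ranked member of each type was Hist2h2aa1 for H2A, Hist1h2bk for H2B, Hist2h3c1 for H3, Hist1h4c for H4 and Hist1h1e for H1. Genes that share a region share its value, so these counts are not independent.

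**Figure D1:**
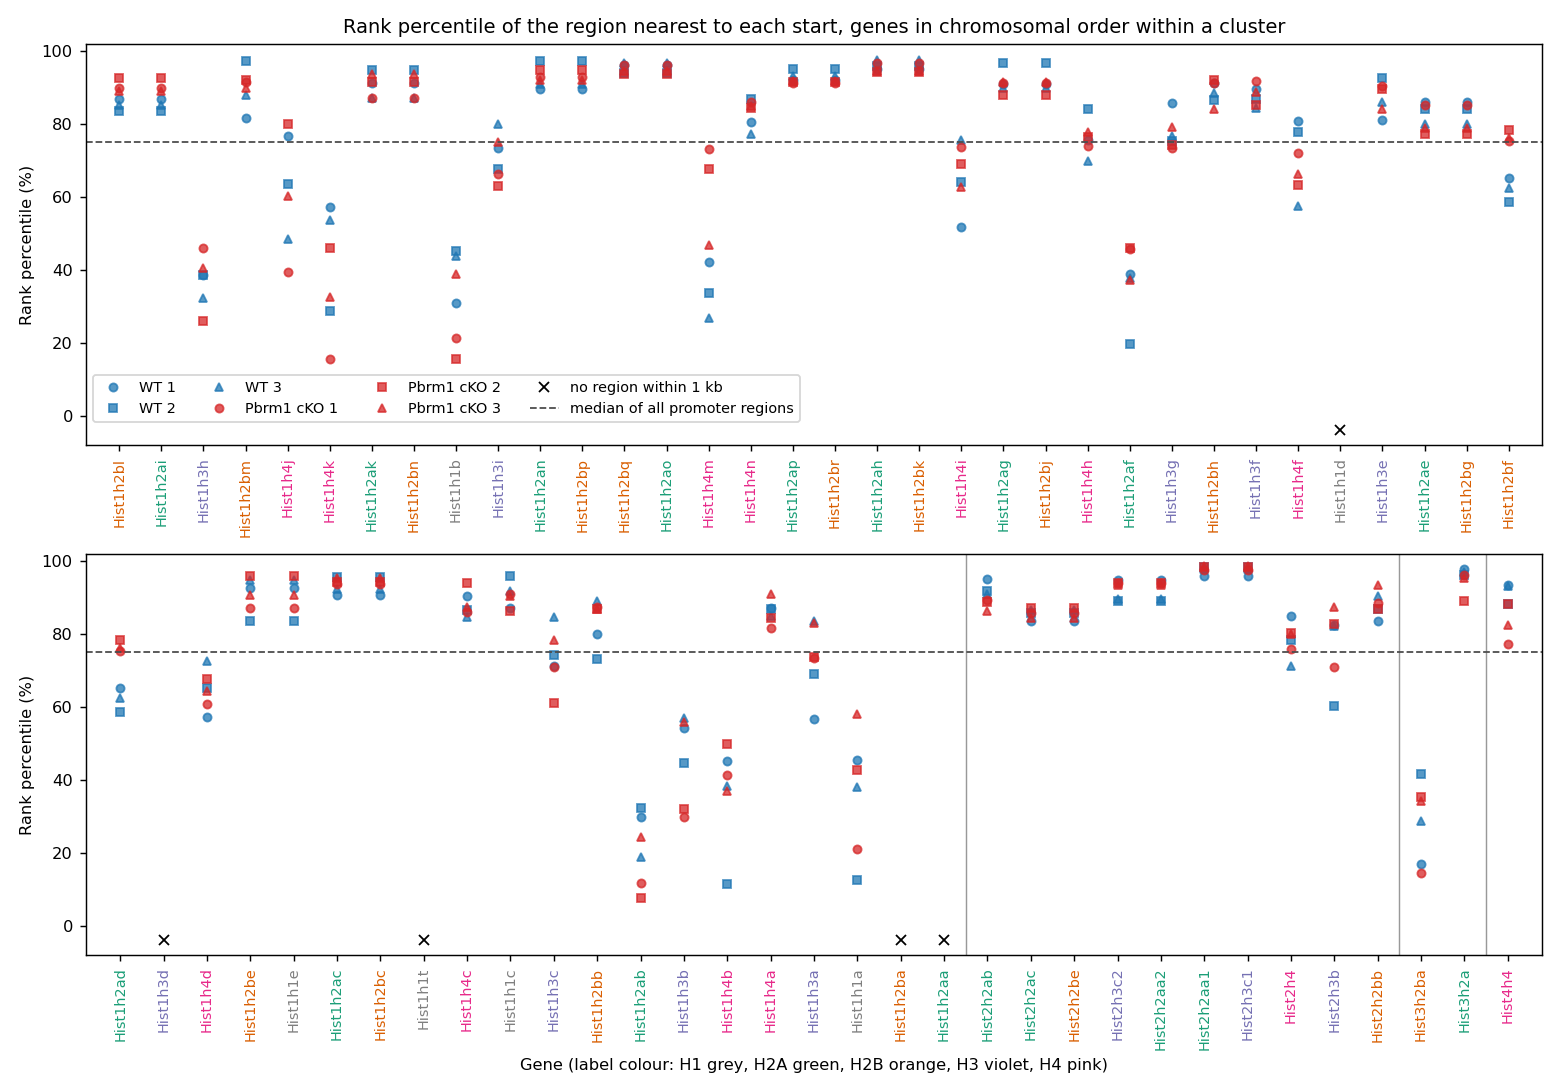
Rank percentile (y axis, in percent; 100% is the strongest) of the region nearest to the start of each member gene (x axis, in chromosomal order within the Hist1, Hist2, Hist3 and Hist4 clusters, separated by grey lines), with 1 point per library, WT in blue and Pbrm1 cKO in red. Most H2A and H2B genes stand above the dashed line, the median of all promoter regions at 75.2%, and crosses mark the 5 genes without a region.

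Regions that held a divergent pair of H2A and H2B starts numbered 11, with a median percentile of 91.5% and a range from 69.4% (Hist1h2ad/Hist1h2bf) to 95.7% (Hist1h2ah/Hist1h2bk). The 13 regions with an H4 start alone had a median of 69.7% and ran from 37.2% to 88.3%, and the 8 with an H3 start alone had a median of 73.4%. The 4 regions with an H2A start alone ran from 20.7% to 95.4%, and 4 of the 5 with an H2B start alone lay between 83.9% and 90.2%. The 9 regions that held no member start had a median of 62.0% and a median width of 281 bases.

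**Figure D2:**
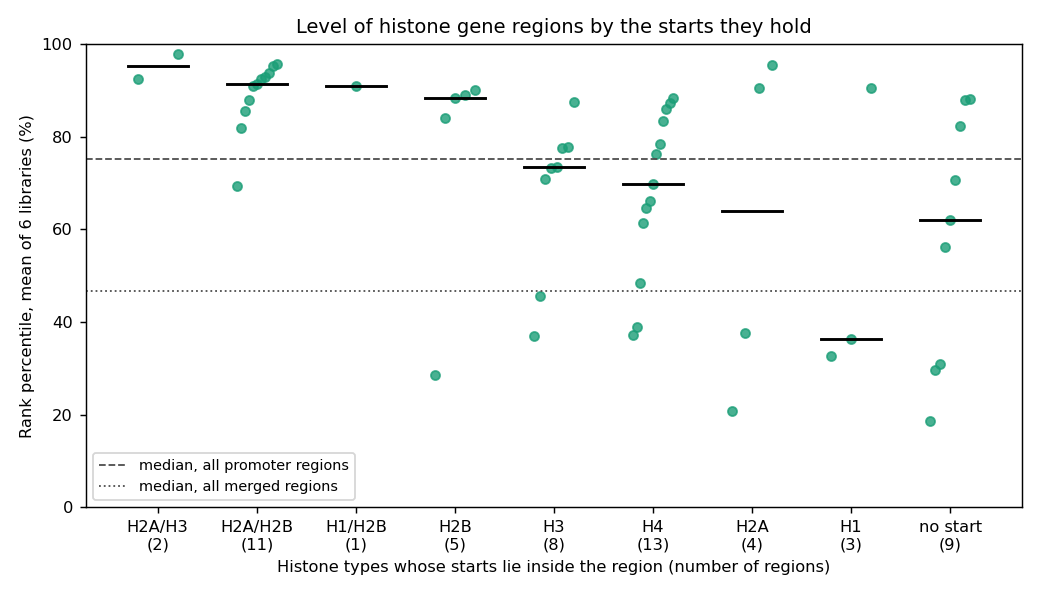
Mean rank percentile over 6 libraries (y axis, in percent) of the 56 member regions, grouped by the histone types whose starts lie inside the region (x axis, number of regions in parentheses), with black bars at the group medians. The regions with divergent H2A and H2B starts lie between 69.4% and 95.7%, while those with an H4 start run from 37.2% to 88.3%.

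The summits sat just before the starts. In the 11 divergent pairs the starts were 175 to 301 bases apart (median 250), and 64 of the 66 library summits (11 pairs in 6 libraries) lay between them. Over 62 members the median summit position was -97 bases, upstream of the start, with 56 members on the upstream side and 44 within 150 bases. By type the median position was -104 bases for H2A, -123 for H2B, -45.5 for H3, -29 for H4 and -4.5 for H1. In 4 genes the median position was over 500 bases away. The summits of the regions shared by Hist2h2aa1 with Hist2h3c1 and by Hist2h2aa2 with Hist2h3c2 lay at -53 and -104 bases from the H2A starts and at -1241 and -1253 bases from the H3 starts. The region shared by Hist1h1e and Hist1h2be peaked 28.5 bases into Hist1h1e and at -1451.5 bases from Hist1h2be, at medians over libraries (in Pbrm1 cKO replicate 1 the summit lay 849 bases into Hist1h1e). At Hist1h1c, the libraries were split, with the summit at 4, 969 and 965 bases from the start in WT and at -8, 897 and 972 bases in Pbrm1 cKO. The ranks of Hist2h3c1, Hist2h3c2 and Hist1h2be were thus set by a peak next to another gene.

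**Figure D3:**
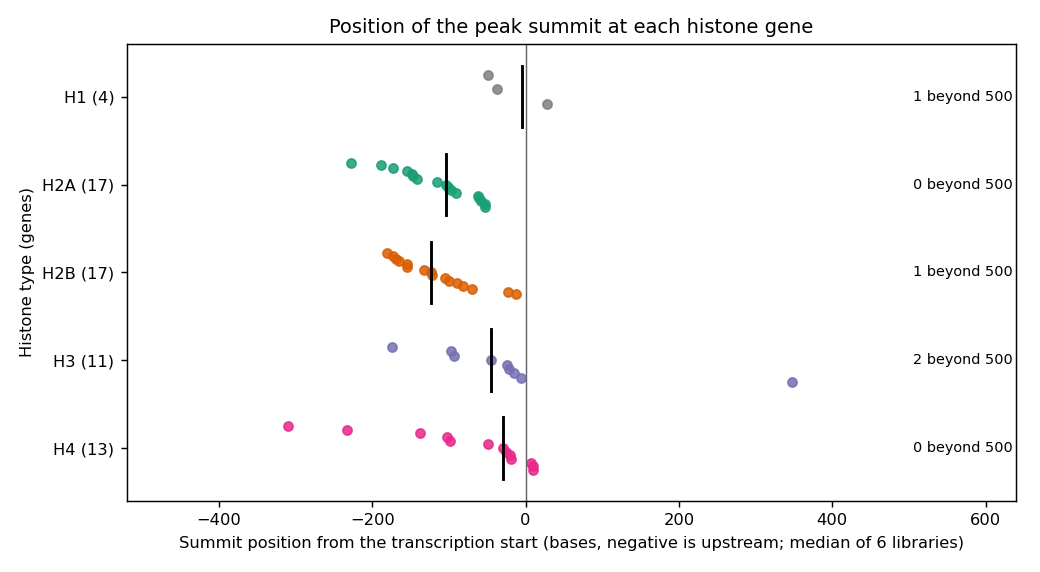
Position of the peak summit from the transcription start (x axis, in bases, negative upstream; median of 6 libraries) for each member with a region, by histone type (y axis, number of genes in parentheses), with black bars at the medians. H2A and H2B summits lie upstream around -104 and -123 bases and H4 summits nearer the start at -29, and 4 genes beyond 500 bases are given as counts at the right.

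The 5 best-ranked regions were all at H2A genes. The region of Hist2h2aa1 and Hist2h3c1 (chr3:96245067-96246885, 1819 bases) ranked 2675, 1017 and 1316 in WT and 1574, 1123 and 824 in Pbrm1 cKO. The Hist1h2ah/Hist1h2bk region ranked 3318, 2744.5 and 1631 in WT and 2122, 3769 and 3611 in Pbrm1 cKO. Hist3h2a, an H2A gene outside the large clusters, followed with the values given further on. Next came Hist1h2ao/Hist1h2bq, at 2572, 4021 and 2065 in WT and 2557, 4184 and 3671 in Pbrm1 cKO. The Hist1h2ac/Hist1h2bc region ranked 6075.5, 2874.5 and 5005 in WT and 4071, 3778 and 3069 in Pbrm1 cKO. In each of these 5 the genotypes overlapped.

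At the other end were short regions and Hist3h2ba. A 121-base region beside Hist1h4k ranked 52917.5, 54688.5 and 45172 in WT and 64491, 54825 and 53726 in Pbrm1 cKO. Hist1h2ab, an H2A gene with a region of its own of 260 bases, ranked 46859.5, 45195 and 54178 in WT and 58915, 61613 and 50369 in Pbrm1 cKO, and the ranges overlapped. The region over the start of Hist3h2ba, the H2B gene next to Hist3h2a, ranked 55303.5, 38841.5 and 47515 in WT and 56995.5, 43193 and 43908 in Pbrm1 cKO. A 281-base region beside Hist2h3c2 ranked 48997, 51678 and 55011 in WT and 32084, 34577.5 and 53804 in Pbrm1 cKO. The last of the 5 lowest was a 124-base region beside Hist3h2a, described with the differences.

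Several members are near-identical copies, and reads of such copies cannot be placed with certainty. Of the 56 regions, 40 shared at least 1 of their 50-base words with another place in the genome, 34 shared over 10% and 6 over 75%. Every word of the Hist1h2ao/Hist1h2bq and the Hist1h2ap/Hist1h2br region occurred elsewhere (100%). For Hist2h2aa1/Hist2h3c1 the share was 79.1%, for Hist2h2aa2/Hist2h3c2 86.6%, for Hist1h4n 88.8% and for Hist1h4m 87.7%. The first of each pair of copies ranked better than the second in 6 of 6 libraries for Hist2h2aa1 and Hist2h2aa2 (mean rank 1421.5 against 4979), in 5 of 6 for Hist1h2ao and Hist1h2ap (3178 against 4973) and in 6 of 6 for Hist1h4n and Hist1h4m (11058 against 34430). The 22 regions with at most 10% of their words elsewhere had a median percentile of 70.8% and the other 34 one of 85.8%. Among the divergent H2A/H2B regions the share ran from 4.37% at Hist1h2ad/Hist1h2bf, the lowest-ranked of them, to 100%. Regions with an H4 start alone ran from 0% to 88.8%. The levels by histone type given above were not split by this share. The part of shared reads in these levels was not tested.

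No member region differed between the genotypes by the test across all regions. Ranks were turned into a rank score, log2(66679 / rank), on which a difference of 1 means a rank number divided by 2, and the scores of 3 WT and 3 Pbrm1 cKO libraries were compared with limma over all 66679 regions with Benjamini-Hochberg adjustment. Adjusted p was under 0.05 for 0 of 56 member regions in either direction, where 0.039% of all regions were called higher and 0.03% lower in Pbrm1 cKO. The smallest adjusted p of a member (limma) was 0.201. At an unadjusted p under 0.05 there were 4 member regions (7.14%), 2 in each direction, against 15.9% of all regions. In 3 member regions every Pbrm1 cKO library ranked better than every WT library (5.36%, against 10.6% of all regions), and in 2 every one ranked worse (3.57%, against 10.8%).

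The differences were centred on 0. The median rank-score difference (Pbrm1 cKO minus WT) was -0.0043 over 56 member regions, -0.05 over all promoter regions and 0.0010 over all regions, and 28 member regions were above 0 and 28 below. The 4 regions in the WT list alone were all below 0 (-1.93, -0.31, -0.22 and -0.18). The 2 in the Pbrm1 cKO list alone were above 0 (0.23 and 0.21). Entry through 1 list favours these directions, so their signs carry no separate information. In 48 of 56 the difference was smaller than 0.5 in size. Ranked by fold enrichment, 15 were above 0 and 41 below, with a median of -0.13 against -0.03 for all regions, and again 0 of 56 were called. By the starts they held, the median difference was -0.08 for the divergent H2A/H2B regions (4 above 0, 7 below), -0.12 for H3 (4 and 4) and -0.01 for H4 (6 and 7), and it was 0.10 for regions with an H2B start alone (3 and 2). It was -0.47 for the 4 regions with an H2A start alone (1 and 3), 0.44 for the 2 with H2A and H3 starts (2 and 0), -0.31 for the 3 with an H1 start alone (1 and 2), 0.11 for the single region with H1 and H2B starts and 0.04 for the 9 without a start (6 and 3). The standard errors ran from 0.15 to 0.87 (median 0.36), which limits the size of difference that 3 libraries a side could show.

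**Figure D4:**
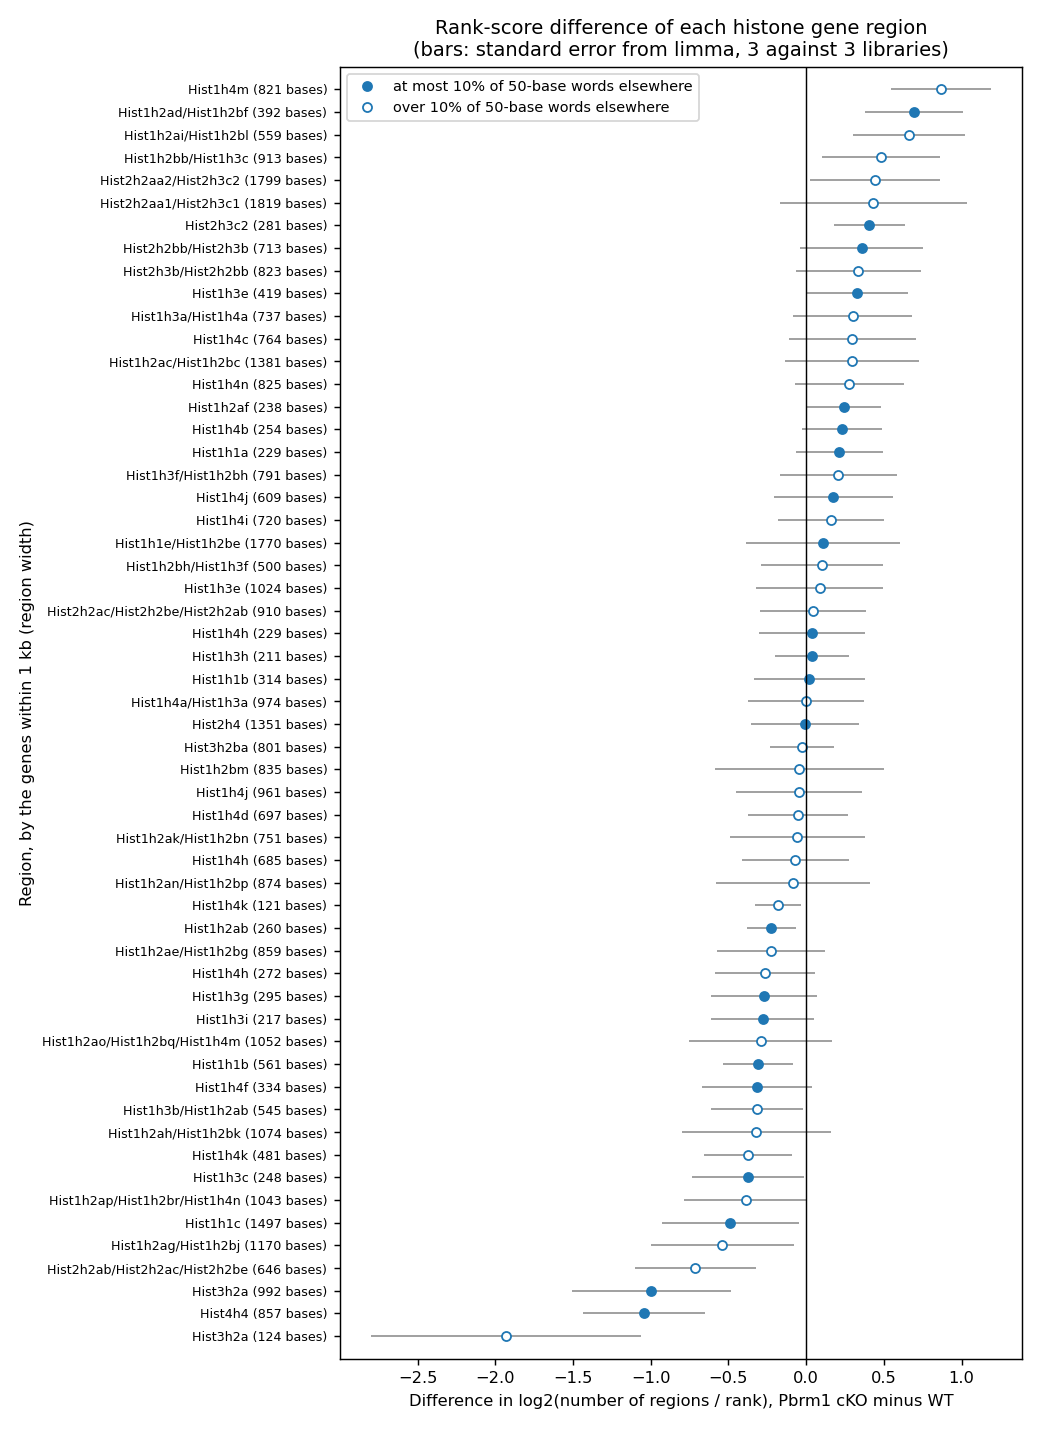
Difference in rank score between Pbrm1 cKO and WT (x axis, log2 scale; bars are standard errors from limma with 3 libraries each) for the 56 member regions (y axis, named by the genes within 1 kb and the region width). Differences ran from -1.93 at the 124-base Hist3h2a region to 0.87 at Hist1h4m, with 28 above 0 and 28 below. Open circles mark regions with over 10% of their 50-base words elsewhere.

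The largest positive difference was at Hist1h4m, an H4 gene of the first Hist1 block (chr13:21811592-21812412). It ranked 38615, 44273 and 48797 in WT and 17857, 21572.5 and 35464 in Pbrm1 cKO. All Pbrm1 cKO libraries thus ranked it better than any WT library. Its rank-score difference was 0.87 ± 0.32 (SE, limma adjusted p = 0.201), and 87.7% of its words occur elsewhere. Tags at its summit, not scaled between libraries, numbered 34, 30 and 16 in WT and 68, 52 and 39 in Pbrm1 cKO. Fold enrichment there was 5.56, 5.00 and 3.61 in WT and 8.13, 7.29 and 5.45 in Pbrm1 cKO, with overlap. The summit lay at -86, -62 and -90 bases from the start in WT and at 10, 11 and 12 in Pbrm1 cKO. Tags and fold were thus read at different positions in the genotypes. Its near-copy Hist1h4n ranked 12946, 8744.5 and 15074 in WT and 9333, 10297 and 9951 in Pbrm1 cKO, with a difference of 0.28, and the genotypes overlapped there.

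The region between Hist1h2ad and Hist1h2bf (chr13:23574139-23574530), whose shared promoter is printed above, ranked 23104, 27558 and 24956 in WT and 16443, 14384 and 15868 in Pbrm1 cKO. The groups did not overlap, and the replicates lay close together. Its rank-score difference was 0.69 ± 0.31 (SE, limma adjusted p = 0.289), and only 4.37% of its 50-base words occur elsewhere. Fold enrichment at its summit was 7.36, 6.83 and 5.69 in WT and 8.85, 9.50 and 8.79 in Pbrm1 cKO. The Hist1h2ai/Hist1h2bl region (chr13:21715981-21716539) ranked 8711, 10987 and 9826 in WT and 6803, 4835.5 and 7206 in Pbrm1 cKO, again without overlap (0.66 ± 0.36, SE, limma adjusted p = 0.383), with 26.7% of its words elsewhere.

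The largest negative difference was at the 124-base region upstream of Hist3h2a (chr11:58954073-58954196). This region was in the WT list alone, so it entered the set only through the genotype in which its rank score was higher. It ranked 1378.5 in WT replicate 1, 52212.5 and 50179 in WT replicates 2 and 3, and 65525.5, 66679 (no entry) and 45832 in Pbrm1 cKO. A single entry in WT replicate 1 spanned both this and the main Hist3h2a region, which gave both the same rank there. The difference of -1.93 ± 0.87 (SE, limma adjusted p = 0.289) was -0.19 without that library, and 12.0% of the words occur elsewhere. The main Hist3h2a region (chr11:58954403-58955394) ranked 1378.5, 2478 and 1963 in WT and 2412.5, 7229 and 3046.5 in Pbrm1 cKO, with overlap. Its difference was -0.995 ± 0.51 (SE, limma adjusted p = 0.353), and -0.52 without Pbrm1 cKO replicate 2.

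Hist4h4, the only member on chromosome 6 (chr6:136803725-136804581), ranked 4377, 7772 and 4568 in WT and 15188, 7727 and 11585 in Pbrm1 cKO. WT replicate 2 and Pbrm1 cKO replicate 2 were nearly equal, so the groups overlapped. The difference was -1.04 ± 0.39 (SE, limma adjusted p = 0.209), and none of its 50-base words occurs elsewhere. Fold enrichment was 10.7, 9.15 and 9.77 in WT and 8.26, 9.97 and 8.52 in Pbrm1 cKO. For Hist3h2ba, the other gene outside the large clusters, the difference was -0.03 ± 0.21 (SE, limma adjusted p = 0.967).

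**Figure D5:**
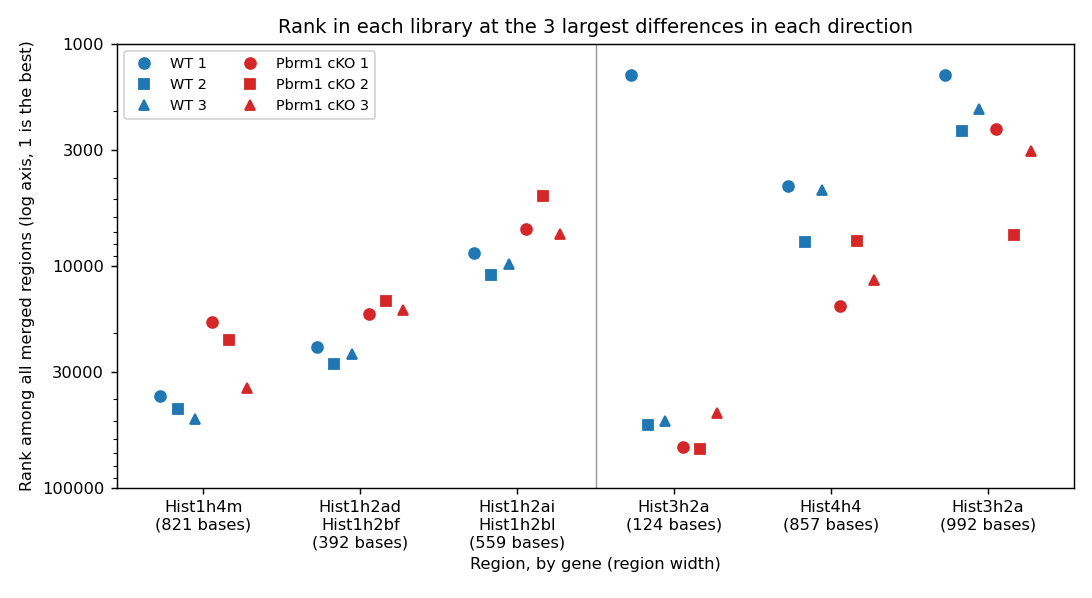
Rank among 66679 regions in each library (y axis, log scale with the best rank at the top; WT in blue, Pbrm1 cKO in red) at the 3 regions with the largest positive and the 3 with the largest negative rank-score difference (x axis, gene and region width). Every Pbrm1 cKO point lies above every WT point in the first 3 regions, while in the other 3 the genotypes overlap, and at the 124-base Hist3h2a region WT replicate 1 stands far from the other 5 libraries.

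All genes on 4 lists related to histones and S phase had a region. The median percentile of each list, by the best-ranked region within 1 kb of a start, was above the 88.4% of the members taken in the same way. The 86.2% given above for other protein-coding genes was taken by the nearest region, so it is not the same measure. The median was 95.6% for 16 factors of histone gene transcription and mRNA processing. Among them Npat, which coordinates histone transcription, ranked on average 327 and Slbp, the stem-loop binding protein, 631. The medians were 95.4% for 12 histone chaperones, 95.2% for 20 S-phase genes and 91.8% for 11 replacement histones. In none of the 4 lists did a region pass the limma threshold in either direction, and at an unadjusted p under 0.05 there were 2 mRNA factors, 1 chaperone, 0 S-phase genes and 0 replacement histones, where 15.9% of all regions passed. The median differences were 0.14, 0.19, 0.07 and 0.01 in the order given here, against 0.0010 over all regions. The largest and smallest differences were 1.07 at Sympk, a scaffold of the 3′ end cleavage complex, and -0.67 at Pou2f1, the octamer factor, among the mRNA factors (limma adjusted p = 0.259 and 0.692). Among chaperones they were 1.06 at Rbbp7 and -0.84 at Rbbp4, both histone-binding WD40 proteins (0.186 and 0.701), and among S-phase genes 1.18 at Mcm4, a subunit of the replicative helicase, and -0.64 at Cdk1, the mitotic kinase (0.770 and 0.6003). For replacement histones they were 0.74 at H2afx, which is also 1 of the 2 other genes with a stem-loop match, and -0.31 at Cenpa, the centromeric H3 (0.533 and 0.813).

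The libraries held between 298563 and 300000 entries, and 95.4% to 99.4% of the regions had an entry in a given library, with the lowest share in WT replicate 3. The Pbrm1 start region ranked 19394.5, 10525.5 and 19166 in WT and 12415, 12332 and 22222 in Pbrm1 cKO, and since the position of the deleted part is not given in the sources used here, these ranks do not check the deletion. Smooth muscle markers (Acta2, Myh11, Cnn1, Tagln, Des and Lmod1) had a region in 6 of 6 cases, with percentiles from 27.4% (Lmod1) to 70.9% (Acta2) and a median of 53.8%. Of other cell types, regions were found for 3 of 4 fibroblast (median 48.4%), 3 of 3 endothelial (47.4%), 1 of 7 epithelial (Foxj1, 93.4%, above every smooth muscle marker) and 1 of 4 immune (Cd68, 66.1%) markers, and no marker differed between genotypes by limma. The part of other cells in the values was not tested.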

How the data were processed

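ATAC-seq peak lists of 6 libraries from mouse oviductal smooth muscle cells were used, 3 labelled WT and 3 Pbrm1 cKO. According to the study's methods, reads were run by the authors through the ENCODE ATAC-seq pipeline on GRCm38, with peaks from MACS2. The submitters' processing notes name cutadapt, Bowtie2, MACS2 and GRCm38.p5. For each library the authors deposited a relaxed list (p of 0.01, at most 300000 entries), and for each genotype a list at an irreproducible discovery rate of 0.05. The deposited values were fold enrichment over local background (a ratio), −log10 p-value and −log10 q-value. How reads with several placements were treated, and which replicates entered the genotype lists, is not given in the sources used here. The authors' DESeq2 test needs counts, so ranks were used.

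Conservative peaks overlapping by 1 base or more were merged into 66679 regions. A region belonged to a gene within 1 kb of a GENCODE M21 start. limma 3.58.1 (R 4.3.3, trend, Benjamini-Hochberg over all regions) compared rank scores. On simulated ranks of 66679 regions with 200 changed, it recovered 156 and called 5 wrongly. The simulated shifts were larger than the difference at any member region, and every region had the same noise. The recovery therefore does not show how often differences of the size seen at members would be found. Tags at a summit were solved from fold and p, and differed from the listed −log10 p by at most 2.61e-05. The groups and replicate numbers came from the labels; the study calls the replicates biological, the labels name no animals, and p-values measure only the spread between these libraries. Same-numbered libraries did not deviate together (r = -0.0028, -0.0548 and 0.0093).

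Members, lists and motifs were chosen with earlier results of these data known. Values were given for the 3 largest differences in each direction, the 5 best and 5 worst mean ranks, the Hist3 and Hist4 members and the testis histones, and the extremes of each list. Python 3.11.15 with numpy 2.4.6, pandas 2.3.3, numba 0.67.0 and matplotlib 3.10.9 were used.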

Additional observations from a re-analysis of the deposited data

How the results depend on the processing

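No member region was called in either direction under any alternative run, and the smallest adjusted p (limma) of a member ranged from 0.0691 (normal scores with tied ranks, an alternative chosen after seeing the data) to 0.390 (without Pbrm1 cKO replicate 1). The median rank percentile of member regions, 80.2%, was 58.6% by fold enrichment, 83.4% within 0.5 kb, 87.3% with 1 region per gene and 70.8% for regions with at most 10% of their words elsewhere (also chosen after seeing the data). Members with a region ranked in the best 30000 of every library numbered 53, and in the best 10000 they numbered 25. The share of other protein-coding genes at these cuts is not given here, so the counts do not set members apart. With the replicate block, 0 of 56 member regions were called and the median difference stayed at -0.0043. Over all regions, calls numbered 46, against 130 with the replicate block, 7 by fold enrichment, 23 with normal scores, 31 for regions with an entry in all 6 libraries, 1552 with tied ranks and 2 to 25 when 1 library was left out. The differences at the 6 most different regions kept their sign under every alternative run that held the region. The small Hist3h2a region was not in the run limited to regions with an entry in all 6 libraries. These regions were picked for their differences in the same libraries, so a kept sign is not independent support. By fold enrichment the differences were 0.30 at Hist1h4m, 0.30 at Hist1h2ad/Hist1h2bf and 0.41 at Hist1h2ai/Hist1h2bl, against 0.87, 0.69 and 0.66. With 1 library left out they ran from 0.66 to 1.15 at Hist1h4m, 0.63 to 0.75 at Hist1h2ad/Hist1h2bf, 0.48 to 0.77 at Hist1h2ai/Hist1h2bl, -1.31 to -0.82 at Hist4h4, -1.32 to -0.52 at the main Hist3h2a region and -2.81 to -0.19 at its small one. Why the settings differ was not tested. Ranks hide changes common to all regions, and summit depth of 9 to 164 tags limits the weaker members.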

Other observations

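The histone clusters also held accessible regions away from the member starts of GENCODE M21. In the first Hist1 block 34 of 53 regions lay over 1 kb from any member start, 5 of them at starts of Zfp184, Pom121l2 and Prss16, and their median percentile was 57.4% against 83.4% for the 19 member regions. In the second block 11 of 36 did (41.0% against 76.3%), and in Hist2 2 of 10 (51.4% against 87.0%). The 11 include chr13:23554910-23556357, which lies over the RefSeq start of Hist1h1d but over 1 kb from its GENCODE M21 start. They also include chr13:23585491-23586176 (80.3%), which holds the stem-loop of Hist1h2be (chr13:23585531-23585546). That region lies inside this member gene but over 1 kb from its GENCODE M21 starts, so the 11 are not all outside histone genes. Of these 47 regions 0 were called in either direction by limma (0.039% higher and 0.03% lower among all regions), and 7 had an unadjusted p under 0.05, where 15.9% of all regions did.

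The region at Pom121l2, a gene named here after its values were seen, ranked 19627, 21883.5 and 11782.5 in WT and 41951, 37773.5 and 38483.5 in Pbrm1 cKO, so that the groups did not overlap (rank-score difference -1.20, limma adjusted p = 0.110). A candidate of opposite direction, named in the same way, was an unassigned region at chr13:23700900-23701064, which ranked 63153, 55220.5 and 61147 in WT and 39387.5, 35807 and 34820.5 in Pbrm1 cKO (0.71, limma adjusted p = 0.108).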
